A study of Mus musculus with 4 samples.

Results

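The genes of cholesterol synthesis, uptake and efflux were followed here in T cells cultured toward the regulatory (Treg) fate, 32 genes chosen by symbol out of the 34745 genes of the deposited table. All 32 symbols were found, each in 1 row, and all 32 passed the filter on low counts. RNA sequencing had been done on 4 libraries from cultures of naive splenic CD4+ T cells of C57BL/6 mice, taken after 3 days of Treg polarization. The knockout-labelled libraries, 22 and 24, carried the genotype Setd2-CD4 cre, that is, Setd2 targeted with a Cre recombinase driven by CD4 regulatory sequences, which are active from a thymocyte stage onward in both CD4 and CD8 T cells. The wild-type libraries were 13 and 15. The labels do not give the age or sex of the mice, whether wild-type mice carried Cre, or whether each library is 1 animal. The p-values therefore measure only how far apart these libraries lie, and that spread may be technical. SETD2 is the methyltransferase that trimethylates lysine 36 of histone H3, and the title of the series concerns autoimmunity and phospholipid remodelling.

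Cells make cholesterol from acetyl-CoA through mevalonate, isoprenoid units, squalene and a chain of sterols. When sterol in the endoplasmic reticulum is low, SCAP escorts the transcription factors SREBP1 and SREBP2 to the Golgi, where they are cut and released to switch on the genes of synthesis and uptake. INSIG proteins hold SCAP back when sterol is plentiful. Oxysterols instead activate the liver X receptors (LXRs), which raise the efflux pumps ABCA1 and ABCG1 and MYLIP, a ubiquitin ligase that removes lipoprotein receptors. Activated T cells are known to turn on sterol synthesis as they grow and divide, and mevalonate metabolism is known to matter for Treg function.

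Total counts ran from 14599957 to 16030869 per library. Levels are given as CPM (counts scaled to library size and made comparable between libraries). A floor of 3 counts was 0.184 to 0.201 CPM, which covers counting error only, and every member but Nr1h3 stood far above it. Setd2 itself measured 137 and 113 CPM in knockout-labelled 22 and 24, against 137 and 146 CPM in wild type 13 and 15 (log2 fold change -0.17, SE 0.14, adjusted p = 0.436). The groups overlapped, and reads from exons that are not deleted count here too, so the value checks the labels only in part. The groups are therefore called knockout-labelled and wild type. T cell identity was clear in all 4 libraries: 8 markers of CD4 T cells summed to 3583 to 3659 CPM in knockout-labelled libraries and 3669 to 3811 CPM in wild-type libraries. Of 6 Treg markers, 3 fell and 0 rose, with 3 lower and 2 higher at an unadjusted p below 0.05. Over all genes tested 4.59% fell and 5.53% rose, and 15.5% were lower and 16.2% higher at an unadjusted p below 0.05. Foxp3, the defining Treg factor, was at 31.9 and 75.7 CPM in knockout-labelled libraries, against 241 and 247 CPM in wild-type libraries (adjusted p = 0.0233). Il2ra and Izumo1r, both surface receptors of Treg cells, fell too (log2 fold changes -0.52 and -1.25, adjusted p = 0.0304 and 0.0267), but Il2ra did not pass without wild type 13 (0.166) or wild type 15 (0.247), nor Izumo1r without wild type 13 (0.0518). Ctla4 and Ikzf2 pointed the other way, with both knockout-labelled libraries above both wild-type libraries and log2 fold changes of 0.41 and 0.34 that did not pass (adjusted p = 0.0702 and 0.103), and Tnfrsf18 overlapped. With no filter on low counts 1 of the 6 Treg markers rose, where 6.69% of all genes did, and Foxp3, Il2ra and Izumo1r still fell.

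Of the 32 cholesterol genes, 2 rose in the knockout-labelled libraries (Mvd and Abca1), none fell, and 30 did not pass the threshold, an adjusted p below 0.05 in edgeR's quasi-likelihood test. Across all 13279 genes tested, 5.53% were higher and 4.59% were lower by the same rule, so 2 of 32 is close to the background share. At an unadjusted p below 0.05, 11 members were higher and 0 lower, where 16.2% and 15.5% of all genes were higher and lower. DESeq2 called 5 members higher (Mvd, Abca1, Acat2, Fdft1 and Insig1) and 0 lower, against 8.27% of all genes higher and 6.87% lower. With no filter on low counts 6 members were higher, the same 5 and Npc2 (6.69% of all genes higher, 5.77% lower). With limma on FPKM 1 member was higher, both on log2(FPKM + 1) (3.35% of all genes higher, 3.36% lower) and on log2(FPKM + 0.1) (3.44% and 3.27%). The fitted values leaned upward: 23 members lay above 0 and 9 below, and the median log2 fold change was 0.16 for the members, against -0.0013 over all genes tested. Both knockout-labelled libraries lay above both wild-type libraries in 17 of the 32 members and below them in 4, where 31.1% and 32.7% of all genes did so. No test of the list as a whole was made, and an exact test of a single gene with 2 libraries a group cannot give a p below 0.333.

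**Figure D1:**
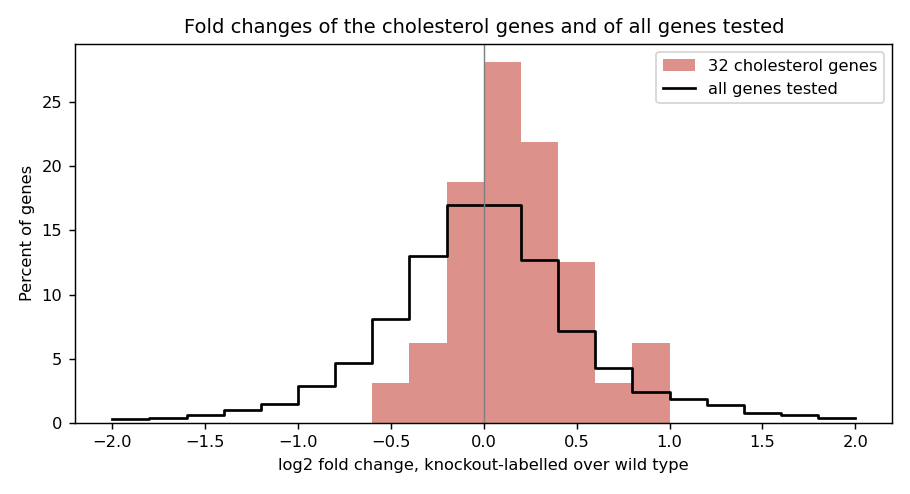
Percent of genes (y axis) in bins of the log2 fold change, knockout-labelled over wild type (x axis), for the 32 cholesterol genes (filled bars) and all 13279 genes tested (line); 265 genes beyond 2 in either direction are not drawn. The members lie between -0.43 and 0.84, a range that holds 73.5% of all genes, and most of the bars stand right of 0.

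The count of calls moved with the libraries used. Leaving out wild type 13 or wild type 15 left 0 members past the threshold (1.39% and 0.868% of all genes higher, 0.936% and 0.506% lower), with 4 higher and 0 lower at an unadjusted p below 0.05 in each case. The log2 fold changes then stayed near their value with all libraries, at 0.83 and 0.84 for Mvd and 0.87 and 0.79 for Abca1, and the share of calls over all genes dropped as well. Without knockout-labelled 22, 3 members were higher and 0 lower (7.24% and 6.55% of all genes), and without knockout-labelled 24, 13 were higher and 0 lower (15.5% and 14.6% of all genes). Knockout-labelled 22 held the larger ratios: the median member stood 0.25 above the wild-type mean there on the log2 scale and 0.16 above it in knockout-labelled 24. Knockout-labelled 22 was the higher of the pair for 19 of 32 members, against 49.0% of all genes.

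**Figure D2:**
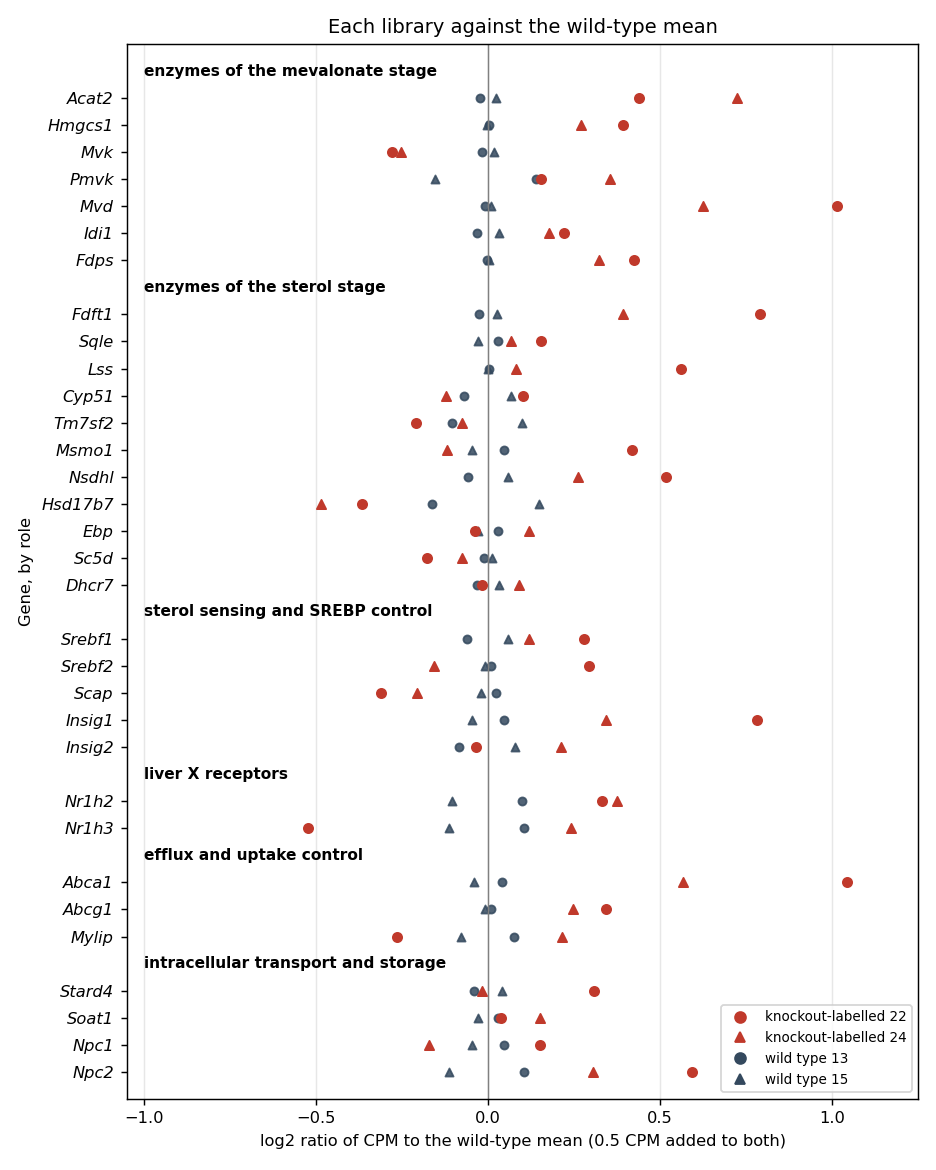
The log2 ratio of each library's CPM to the wild-type mean (x axis, 0.5 CPM added to both) for each gene (y axis, grouped by role), with knockout-labelled libraries in red and wild-type libraries in dark blue. Mvd and Abca1 lie right of 0 in both knockout-labelled libraries. Knockout-labelled 22 lies well to the right of knockout-labelled 24 for Mvd, Abca1, Fdft1, Lss, Msmo1, Srebf2 and Insig1, and well to the left of it for Mylip and Nr1h3.

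Among the 7 enzymes of the mevalonate stage, both knockout-labelled libraries lay above both wild-type libraries in 6 and below them in 1, Mvk, but only Mvd passed the threshold. Over all genes 31.1% lay above and 32.7% below in this way. In the sterol stage 4 of 11 enzymes lay above, 2 below and 5 overlapped, and by the sign of the fitted value 7 of 11 were above 0, where 6 of 7 were in the mevalonate stage. Summed over these 7 enzymes, the deposited FPKM (a level scaled to gene length and library total) was 163 and 159.6 in knockout-labelled 22 and 24, against 126 and 126 in wild type 13 and 15. For the 11 enzymes of the sterol stage the sums were 133 and 122 FPKM in knockout-labelled libraries and 116 and 121 FPKM in wild-type libraries. In each stage both knockout-labelled sums lay above both wild-type sums, but in the sterol stage knockout-labelled 24 was within 2 FPKM of wild type 15. These sums come from bulk RNA, in which a change in the number of cells of a type cannot be told apart from a change in RNA per cell.

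Mvd encodes mevalonate diphosphate decarboxylase, which makes isopentenyl diphosphate, the isoprenoid building block. Its gene (ENSMUSG00000006517) lies on chromosome 8 at 122433596 to 122443422, minus strand, GRCm38. It measured 65.6 and 50.0 CPM in knockout-labelled 22 and 24, against 32.03 and 32.4 CPM in wild type 13 and 15. The wild-type libraries were nearly equal, and both knockout-labelled libraries stood above them, library 22 more so. The means were 57.8 ± 11.03 CPM in knockout-labelled libraries and 32.2 ± 0.293 CPM in wild-type libraries (SD, n = 2 each), a 1.79-fold rise (log2 fold change 0.84, SE 0.16, edgeR adjusted p = 0.0308). Without wild type 13 the adjusted p was 0.131 and without wild type 15 it was 0.16, and over all 14 alternatives it ran from 0.00141 to 0.16, with log2 fold changes of 0.64 to 1.02.

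Abca1 encodes the pump that moves cholesterol and phospholipid out of cells onto apolipoproteins, and is a classic LXR target. The gene (ENSMUSG00000015243) is on chromosome 4 at 53030787 to 53159895, minus strand, GRCm38. Its level was 49.5 and 35.5 CPM in knockout-labelled 22 and 24, against 24.5 and 23.1 CPM in wild type 13 and 15. The groups did not overlap, and the knockout-labelled pair was again spread, with library 22 on top. Abca1 averaged 42.5 ± 9.92 CPM in knockout-labelled libraries and 23.8 ± 0.969 CPM in wild-type libraries (SD, n = 2 each), a 1.79-fold rise (log2 fold change 0.84, SE 0.19, edgeR adjusted p = 0.0431). The call was lost without wild type 13 (adjusted p = 0.14), without wild type 15 (0.221), and with limma on log2(FPKM + 1) (0.0854) and on log2(FPKM + 0.1) (0.0829), and the range over 14 alternatives was 0.00511 to 0.221.

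**Figure D3:**
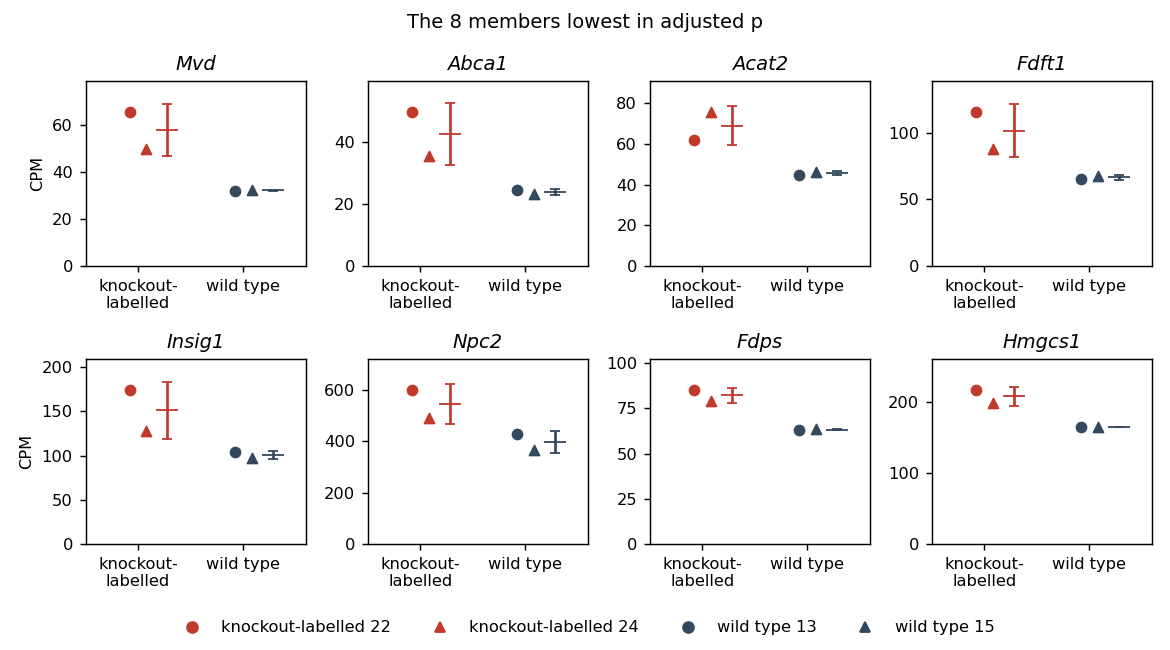
CPM (y axis, from 0) in the knockout-labelled and wild-type libraries for the 8 members lowest in adjusted p; each symbol is 1 library, and the horizontal marks with bars are the mean and SD of 2 libraries. The 8 were picked by adjusted p, which favours genes whose groups do not overlap. Both knockout-labelled libraries stand above both wild-type libraries in all 8, as in 17 of the 32 members and 31.1% of all genes. Only Mvd and Abca1 pass the threshold.

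The promoters of 4 members are printed for what the results turn on: the pair past the threshold (Mvd and Abca1), the sterol-feedback gene Insig1, and Hmgcs1, the only member promoter with a match to the core of the sterol regulatory element. Each is the 250 bases before the RefSeq gene start in GRCm38.p6, 5′ to 3′ on the gene's own strand, with matches to 3 motifs in capitals.
Mvd (chr8:122443423-122443672, minus strand): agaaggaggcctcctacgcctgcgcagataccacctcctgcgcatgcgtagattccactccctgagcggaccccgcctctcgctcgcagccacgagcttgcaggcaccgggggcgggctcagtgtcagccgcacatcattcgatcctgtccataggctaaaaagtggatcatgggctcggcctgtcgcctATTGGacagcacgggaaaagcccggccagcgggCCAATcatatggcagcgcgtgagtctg
Abca1 (chr4:53159896-53160145, minus strand): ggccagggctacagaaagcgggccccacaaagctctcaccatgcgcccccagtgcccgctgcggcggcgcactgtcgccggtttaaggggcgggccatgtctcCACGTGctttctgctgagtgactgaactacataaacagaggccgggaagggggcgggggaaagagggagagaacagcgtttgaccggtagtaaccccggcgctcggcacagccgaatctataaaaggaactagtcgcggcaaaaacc
Insig1 (chr5:28071162-28071411, plus strand): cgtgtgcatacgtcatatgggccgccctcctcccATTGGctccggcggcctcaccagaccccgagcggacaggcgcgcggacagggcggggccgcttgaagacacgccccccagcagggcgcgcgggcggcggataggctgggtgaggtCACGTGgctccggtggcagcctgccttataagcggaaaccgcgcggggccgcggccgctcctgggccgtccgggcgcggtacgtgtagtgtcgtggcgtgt
Hmgcs1 (chr13:119690101-119690350, plus strand): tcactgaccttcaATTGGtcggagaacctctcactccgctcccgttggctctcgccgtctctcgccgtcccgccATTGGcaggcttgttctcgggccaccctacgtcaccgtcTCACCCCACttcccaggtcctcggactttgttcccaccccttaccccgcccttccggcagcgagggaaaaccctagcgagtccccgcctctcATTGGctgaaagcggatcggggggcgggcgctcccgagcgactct

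The motifs, searched on both strands, were TCACNCCAC (the core of the sterol regulatory element bound by SREBPs), CCAAT (the box bound by nuclear factor Y, known to work beside SREBPs and read as ATTGG on the other strand) and CACGTG (the E-box, a palindrome that SREBPs and other factors can bind). No match overlaps another in the 4 promoters. RefSeq promoters were found for 26 of the 32 members, 35 promoters in all. The sterol regulatory element core was in 1 of these 35, Hmgcs1, where it begins 137 bases before the start, and in 1.05% of all 32851 promoters of the same length. The CCAAT box was in 22 of the 35, in 21 genes, and in 33.8% of all promoters. Hmgcs1 had 3 such boxes, Mvd had 2, which begin 60 and 27 bases before the start, and Insig1 had 1. The E-box was in 6 of the 35 and in 6.02% of all promoters, and begins 147 bases before the start in Abca1 and 101 in Insig1. These matches describe the letters of the windows only.

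Acat2, the cytosolic thiolase that joins acetyl-CoA units at the head of the pathway, lay just outside the threshold. It measured 62.1 and 75.6 CPM in knockout-labelled 22 and 24, against 44.9 and 46.4 CPM in wild type 13 and 15 (log2 fold change 0.59, SE 0.15, adjusted p = 0.0507). Here library 24 was the higher of the knockout-labelled pair, unlike Mvd and Abca1. The adjusted p was below 0.05 under 6 of 14 alternatives (range 0.0183 to 0.297). The neighbouring gene Acat3 has a transcript 97.7% identical to that of Acat2 over 1477 bases, so the counting could split reads between them, and it was at 2.88 and 4.40 CPM in knockout-labelled libraries and 1.96 and 1.68 CPM in wild-type libraries (adjusted p = 0.115).

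Hmgcs1, the synthase that forms HMG-CoA, gave 217 and 199 CPM in knockout-labelled 22 and 24, against 165 and 165 CPM in wild type 13 and 15. All 4 values were tight within groups and the groups did not overlap, but the log2 fold change of 0.33 (SE 0.12) did not pass (adjusted p = 0.11). Fdps, which builds farnesyl diphosphate for sterols and prenylation, showed the same picture with 85.1 and 79.3 CPM in knockout-labelled libraries, against 63.2 and 63.5 CPM in wild-type libraries (log2 fold change 0.38, SE 0.13, adjusted p = 0.0988). Gm43738, an annotated gene on the same strand, covers 26.7% of the exon bases of Fdps, and had 624 counts over the 4 libraries. The isomerase gene Idi1 measured 90.1 and 87.6 CPM in knockout-labelled libraries, against 75.6 and 79.1 CPM in wild-type libraries (adjusted p = 0.317). Transcripts of Gm13502, Gm35570 and Gm8911 are 90.57% to 100% identical to that of Idi1 over 679 to 684 bases. These genes were not among those counted, so their levels are not known. The kinase genes Pmvk and Mvk, which phosphorylate mevalonate in turn, differed in direction. Pmvk had 31.4 and 36.1 CPM in knockout-labelled libraries and 31.0 and 25.2 CPM in wild-type libraries (adjusted p = 0.327). Mvk had 19.2 and 19.5 CPM in knockout-labelled libraries and 23.1 and 23.7 CPM in wild-type libraries (adjusted p = 0.274).

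None of the 11 sterol-stage enzymes passed the threshold in either direction in the main edgeR test. Its unadjusted p was below 0.05 for 2 of them, both higher, a share near the 16.2% of all genes. Fdft1, squalene synthase, commits farnesyl diphosphate to sterols. It measured 116 and 87.6 CPM in knockout-labelled 22 and 24, against 65.4 and 67.9 CPM in wild type 13 and 15 (log2 fold change 0.61, SE 0.17, adjusted p = 0.0641). Fdft1 passed with DESeq2 (adjusted p = 0.0189) and in edgeR with no filter on low counts (0.0263). It stayed outside the threshold in 11 of 14 alternatives, over which the log2 fold change ran from 0.40 to 0.79. Both knockout-labelled libraries were higher, library 22 by the wider margin. Its exons share 774 bases, 18.3% of their length, with Ctsb on the opposite strand, while whether counting used strand is not given here, so their reads may be mixed. Ctsb, which encodes the lysosomal protease cathepsin B, also rose, with 466 and 471 CPM in knockout-labelled libraries, against 335 and 294 CPM in wild-type libraries (adjusted p = 0.034; 0.15 and 0.355 without wild type 13 and 15; highest over 14 alternatives 0.355). The transcript of Gm6781, a gene that was not among those counted, is 97.4% identical to that of Fdft1 over 1249 bases. The parts of Ctsb and Gm6781 in the value of Fdft1 were not tested.

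The other enzymes after squalene were spread around 0. Nsdhl, a sterol dehydrogenase on chromosome X, measured 35.3 and 29.5 CPM in knockout-labelled libraries, against 23.5 and 25.5 CPM in wild-type libraries (adjusted p = 0.145). Lss, lanosterol synthase, measured 71.8 and 51.3 CPM in knockout-labelled libraries, against 48.6 and 48.5 CPM in wild-type libraries (adjusted p = 0.239). Msmo1, a methylsterol oxidase, measured 86.6 and 59.5 CPM in knockout-labelled libraries, against 66.8 and 62.7 CPM in wild-type libraries (adjusted p = 0.574). For Lss the higher mean rested mostly on library 22, and for Msmo1 library 24 lay below both wild-type libraries. Without library 22 the log2 fold change of Msmo1 was -0.11, and without library 24 it was 0.42.

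Lower values were found for Hsd17b7, a reductase that removes a keto group from sterol intermediates, at 18.7 and 17.2 CPM in knockout-labelled libraries, against 21.6 and 26.9 CPM in wild-type libraries (log2 fold change -0.43, SE 0.18, adjusted p = 0.158). Sc5d, the sterol desaturase, had 70.4 and 75.6 CPM in knockout-labelled libraries, against 79.1 and 80.4 CPM in wild-type libraries (adjusted p = 0.527). The groups did not overlap for these genes, but neither difference passed. Sqle, squalene epoxidase and a rate-controlling step, had 72.5 and 68.2 CPM in knockout-labelled libraries, against 66.5 and 63.7 CPM in wild-type libraries (log2 fold change 0.11, SE 0.13, adjusted p = 0.578). Cyp51, the lanosterol demethylase, Ebp, the sterol isomerase, Dhcr7, the reductase of the last step, and Tm7sf2, a sterol reductase, overlapped between groups, with log2 fold changes of -0.15 to 0.04 and adjusted p of 0.625 to 0.98. That of Cyp51, Ebp and Dhcr7 changed sign between scalings or tests, always at values close to 0. Vps51, on the same strand, covers 12.1% of the exon bases of Tm7sf2, and had 2617 counts over the 4 libraries.

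The factors that control the pathway did not pass the threshold in the main test. Insig1, an SREBP target that retains SCAP, measured 174 and 128 CPM in knockout-labelled 22 and 24, against 104 and 97.5 CPM in wild type 13 and 15. The groups did not overlap, and the excess in library 22 was the larger (log2 fold change 0.58, SE 0.17, adjusted p = 0.0754). Insig1 passed with DESeq2 (adjusted p = 0.027) and in edgeR with no filter on low counts (0.0316). It stayed outside the threshold in 11 of 14 alternatives, over which the log2 fold change ran from 0.35 to 0.78. Insig2, its paralog, had 26.1 and 31.1 CPM in knockout-labelled libraries and 25.2 and 28.3 CPM in wild-type libraries (adjusted p = 0.722). Srebf2, which encodes SREBP2, had 418 and 306 CPM in knockout-labelled libraries, against 343 and 339 CPM in wild-type libraries (adjusted p = 0.749). The knockout-labelled libraries lay on either side of the wild-type pair, so its log2 fold change was 0.29 without library 24 (adjusted p = 0.0368) and -0.15 without library 22 (adjusted p = 0.22). Srebf1, which encodes SREBP1, had 155 and 139 CPM in knockout-labelled libraries and 123 and 133 CPM in wild-type libraries (adjusted p = 0.323). Scap had 76.8 and 82.6 CPM in knockout-labelled libraries and 96.8 and 93.9 CPM in wild-type libraries, the lower values without overlap (log2 fold change -0.26, SE 0.13, adjusted p = 0.215).

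On the efflux side, Abcg1, which passes cholesterol to lipoprotein particles, measured 154 and 144 CPM in knockout-labelled 22 and 24, against 122 and 120.4 CPM in wild type 13 and 15 (log2 fold change 0.30, SE 0.12, adjusted p = 0.15). Abcg1 stayed outside the threshold in 13 of 14 alternatives, over which its log2 fold change ran from 0.23 to 0.34. The groups did not overlap, but the difference was smaller than that of Abca1. Mylip had 22.8 and 31.95 CPM in knockout-labelled libraries, on either side of 29.0 and 26.01 CPM in wild-type libraries (adjusted p = 0.986). Of the receptors, Nr1h2, which encodes LXR beta, had 97.5 and 101 CPM in knockout-labelled libraries, against 82.9 and 71.9 CPM in wild-type libraries (log2 fold change 0.35, SE 0.14, adjusted p = 0.133). Nr1h3, which encodes LXR alpha, was close to the floor, with 11 and 25 counts in knockout-labelled libraries and 23 and 17 counts in wild-type libraries (adjusted p = 0.885).

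Genes of transport and storage inside the cell did not pass in the main test either. Npc2, the lysosomal carrier that hands cholesterol to NPC1, measured 599 and 491 CPM in knockout-labelled 22 and 24, against 427 and 367 CPM in wild type 13 and 15. The groups did not overlap, and the wild-type pair was itself spread (log2 fold change 0.46, SE 0.14, adjusted p = 0.0865). Npc2 passed in edgeR with no filter on low counts (adjusted p = 0.042). It stayed outside the threshold in 12 of 14 alternatives, over which its log2 fold change ran from 0.32 to 0.59. Its membrane partner Npc1 had 141 and 113 CPM in knockout-labelled libraries, on either side of 132 and 123 CPM in wild-type libraries (adjusted p = 0.994). Stard4, a sterol carrier of the cytosol, had 154 and 123 CPM in knockout-labelled libraries, against 121 and 128 CPM in wild-type libraries (adjusted p = 0.512). Soat1, which esterifies cholesterol for storage, had 110.1 and 119 CPM in knockout-labelled libraries and 109.6 and 105 CPM in wild-type libraries (adjusted p = 0.635).

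Levels per length, read from the deposited FPKM, spanned a wide range. Npc2 was highest, at 176 and 151 FPKM in knockout-labelled libraries and 133 and 115 FPKM in wild-type libraries. Srebf2 came second, with 80.4 and 61.4 FPKM in knockout-labelled libraries and 70.0 and 69.5 FPKM in wild-type libraries. Hmgcs1 followed, the highest of the enzymes, with 64.4 and 61.6 FPKM in knockout-labelled libraries and 52.1 and 52.1 FPKM in wild-type libraries. Insig1, Abcg1, Fdft1 and Mvd came next. Abca1, in place 29 of 32, stood at only 4.50 and 3.37 FPKM in knockout-labelled libraries and 2.36 and 2.24 FPKM in wild-type libraries, below its relative Abcg1 at 35.1 and 34.3 FPKM in knockout-labelled libraries and 29.6 and 29.3 FPKM in wild-type libraries. Nr1h3 was lowest, at 0.136 and 0.308 FPKM in knockout-labelled libraries and 0.277 and 0.225 FPKM in wild-type libraries, where Nr1h2 had 10.7 and 11.6 FPKM in knockout-labelled libraries and 9.71 and 8.45 FPKM in wild-type libraries.

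**Figure D4:**
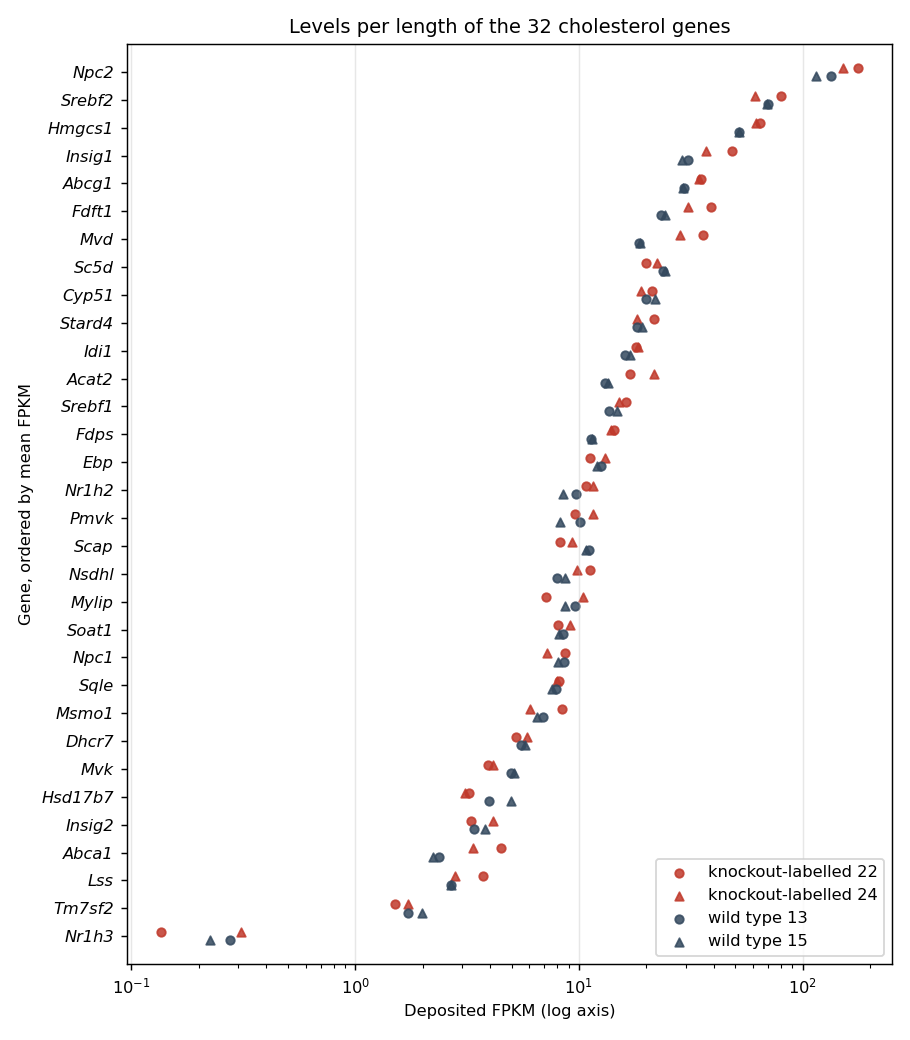
Deposited FPKM (x axis, log scale) of each of the 32 genes (y axis, ordered by mean FPKM) in every library, knockout-labelled in red and wild type in dark blue. Npc2, Srebf2 and Hmgcs1 lie at the top and Nr1h3 at the bottom, and the libraries of 1 gene lie close together beside the span between genes.

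Neighbouring parts of sterol metabolism, taken as whole lists, gave few calls. The shares to read them against are those over all genes, 5.53% higher and 4.59% lower in edgeR, 16.2% and 15.5% at an unadjusted p below 0.05, and 8.27% and 6.87% in DESeq2. Of 24 other genes of sterol transport and storage, 2 rose, 1 fell and 21 did not pass, with a median log2 fold change of 0.12, which is close to those shares. The count of falls was 2 with DESeq2, limma-voom, upper-quartile scaling, library totals, no filter or robust dispersion. The counts of this list also moved when a library was left out, and so did the shares over all genes. Gramd1a, whose product carries cholesterol from the plasma membrane to the endoplasmic reticulum, rose to 547 and 538 CPM in knockout-labelled libraries, against 315 and 251 CPM in wild-type libraries (log2 fold change 0.94, SE 0.14, adjusted p = 0.0185; 0.127 without wild type 15). Abca7, a lipid pump related to Abca1, rose to 308 and 204 CPM in knockout-labelled libraries, against 145 and 131 CPM in wild-type libraries (adjusted p = 0.0438; 0.111 and 0.205 without wild type 13 and 15; 0.0681 and 0.064 with limma on log2(FPKM + 1) and log2(FPKM + 0.1)). Soat2, the second cholesterol-esterifying enzyme, fell to 4.28 and 5.29 CPM in knockout-labelled libraries, against 11.5 and 13.0 CPM in wild-type libraries (log2 fold change -1.35, SE 0.22, adjusted p = 0.0219; 0.0501 and 0.102 without wild type 13 and 15). Scarb1, a lipoprotein receptor, had 28.4 and 21.1 CPM in knockout-labelled libraries and 39.6 and 41.2 CPM in wild-type libraries (adjusted p = 0.0535).

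Among 14 genes of the isoprenoid branch, which draws on farnesyl diphosphate for prenylation, dolichol and ubiquinone, 0 rose, 1 fell and 13 did not pass (1 higher and 2 lower at an unadjusted p below 0.05 with edgeR; DESeq2 called 1 higher and 1 lower), with a median of -0.22. These counts are near or below the shares over all genes. With no filter on low counts edgeR called 1 of this list higher, where 6.69% of all genes were higher. The gene that fell was Coq2, an enzyme of ubiquinone synthesis, at 34.4 and 41.7 CPM in knockout-labelled libraries, against 62.5 and 61.3 CPM in wild-type libraries (adjusted p = 0.0338; 0.159 and 0.184 without wild type 13 and 15). None of the 12 genes of SREBP processing and sterol-regulated degradation passed in the main edgeR test (2 higher and 0 lower at an unadjusted p below 0.05) or with DESeq2. Of 13 LXR partners and oxysterol enzymes, 8 passed the filter on low counts and 0 the threshold (1 higher and 1 lower at an unadjusted p below 0.05). DESeq2 called 1 lower. So did edgeR with library totals, no filter or robust dispersion, where 5.59% to 5.81% of all genes were lower. Without knockout-labelled 24 more genes of the isoprenoid, SREBP processing and LXR lists passed, and more of all genes did too. Of 10 fatty acid synthesis genes that SREBPs also drive, 1 rose and 9 did not pass, where 5.53% of all genes rose. At an unadjusted p below 0.05, 5 were higher and 2 lower, against 16.2% and 15.5% of all genes. DESeq2 called 1 higher and 1 lower, against 8.27% and 6.87%. Leaving out knockout-labelled 24 raised both edgeR counts, and the shares over all genes rose as well. The gene that rose was the desaturase gene Fads2, at 25.1 and 26.8 CPM in knockout-labelled libraries, against 8.39 and 7.71 CPM in wild-type libraries (log2 fold change 1.69, SE 0.17, adjusted p = 0.0108; highest adjusted p over 14 alternatives 0.025).

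Other values moved with the groups. Of 12 proliferation genes, 3 fell and 0 rose (8 lower and 1 higher at an unadjusted p below 0.05; DESeq2 called 5 lower and 0 higher), where 4.59%, 15.5% and 6.87% of all genes were lower by these rules, and their sum was 5341 and 6135 CPM in knockout-labelled libraries, against 7380.3 and 7884 CPM in wild-type libraries. With edgeR no gene of this list passed without wild type 13 or wild type 15, where far fewer of all genes passed. More fell without knockout-labelled 22 or 24, where more of all genes fell too. With no filter on low counts 6 fell (5.77% of all genes lower). With limma on log2(FPKM + 1) or log2(FPKM + 0.1) 2 fell (3.36% and 3.27% of all genes lower). Macrophage and monocyte markers, cells in which Abca1 is abundant, summed to 262 and 349 CPM in knockout-labelled libraries and 278 and 263 CPM in wild-type libraries, which overlap. Of these 10 markers, 8 were tested and 0 passed with edgeR (0 also at an unadjusted p below 0.05, and 0 with DESeq2). This changed only without knockout-labelled 22, where more of all genes were higher too. Most of the sum was Ctss, at 232 and 314 CPM in knockout-labelled libraries and 250.2 and 230.2 CPM in wild-type libraries. Of the 8 tested, 7 had fitted log2 fold changes above 0 (median 0.51). Both knockout-labelled libraries lay above both wild-type libraries in 4 and below in 0, where 31.1% and 32.7% of all genes did so. Adgre1 and Itgam, both defining markers, were too low to test, Adgre1 at 0.334 and 0.0638 CPM in knockout-labelled libraries and 0.306 and 1.01 CPM in wild-type libraries, and Itgam at 1.14 and 0.574 CPM in knockout-labelled libraries and 0.612 and 0.536 CPM in wild-type libraries. B cell markers summed to 43.6 and 31.2 CPM in knockout-labelled libraries, against 18.5 and 16.0 CPM in wild-type libraries. Both knockout-labelled libraries lay above both wild-type libraries in 6 of 6 markers, against 31.1% of all genes. The median log2 fold change of these markers was 1.16. Of the 6, 1 (Igkc) passed the threshold, against 5.53% of all genes, and 5 were higher at an unadjusted p below 0.05, against 16.2%. No B cell marker passed when a wild-type library was left out, with Igkc at log2 fold changes of 1.83 and 1.33 without wild type 13 and 15. More markers passed without knockout-labelled 24, where more of all genes passed too. With no filter on low counts 4 were higher. DESeq2 called 1 higher. Over all genes 6.69% were higher with no filter on low counts and 8.27% with DESeq2. Dendritic cell markers summed to 35.8 and 26.1 CPM in knockout-labelled libraries and 24.8 and 19.0 CPM in wild-type libraries, with Siglech and Xcr1 at 0 counts in every library, 1 of the 3 tested (Zbtb46) higher and 1 (Flt3) lower. Without wild type 15 neither passed (adjusted p = 0.0929 for Zbtb46 and 0.0507 for Flt3), and Flt3 did not pass without any 1 of the other libraries either (0.0624 to 0.275). Erythroid markers summed to 2.81 and 3.70 CPM in knockout-labelled libraries and 3.49 and 2.68 CPM in wild-type libraries. The part of macrophage, B cell and dendritic cell RNA and of proliferation in the values of the cholesterol genes was not tested.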

How the data were processed

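The mouse genome GRCm38.p6 (mm10), Bowtie2 and RSEM are named in the submitters' processing notes. Their versions, the annotation release and the use of strand: not given in the sources used here. The deposited table holds whole-number counts per gene, not normalized, and FPKM values made by the authors, per the file headers. The counts went into edgeR 4.0.16 (R 4.3.3): filterByExpr (minimum count 10, minimum total 15), trimmed-mean-of-M-values scaling, glmQLFit and glmQLFTest, two-sided, no covariate, Benjamini-Hochberg adjustment over 13279 genes, threshold 0.05. The standard error is the log2 fold change over the square root of F, an approximation. CPM are per scaled library size. Alternatives were other scalings and filters, robust dispersion, DESeq2 1.42.0, limma-voom and limma 3.58.1 on log2(FPKM + 1) and log2(FPKM + 0.1), and leaving out each library; with 1 library left in a group, it is assumed to vary like the other group. The test was tried on simulated data.

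The members and lists were chosen with earlier results of these data known. All members are named; of other lists, those past the threshold, at most 3 by adjusted p. Scarb1, Ctla4, Ikzf2, Tnfrsf18, Ctss, Adgre1, Itgam, Siglech, Xcr1, Ctsb, Acat3, Gm43738 and Vps51 were named after their values were seen. A duplicated symbol (Itgam) and an older symbol (Ufd1l) were matched by identifier. Exon overlap and transcript identity came from GENCODE M21, whose chromosome and strand matched for 32 of 32 members, and promoters from RefSeq (GRCm38.p6). Figures were drawn with matplotlib 3.10.9.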

Additional observations from a re-analysis of the deposited data

How the results depend on the processing

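The count of members past the threshold in the upward direction was 2 in the main test, 6 with no filter on low counts, 5 with DESeq2, 1 with limma on log2(FPKM + 1), 1 with limma on log2(FPKM + 0.1), and 0 to 13 with a library left out; the downward count was 0 in the main test and in all 14 alternatives. Over all genes, 734 were higher and 610 lower in the main test, 1261 and 1088 with no filter, 445 higher with limma on log2(FPKM + 1), 457 higher with limma on log2(FPKM + 0.1), and 120 to 2122 higher and 70 to 2002 lower with a library left out. Scaling by library totals turned the excess, with 670 higher and 771 lower. The median log2 fold change of the members, 0.16, was 0.10 with library totals, 0.083 and 0.089 with limma on log2(FPKM + 1) and log2(FPKM + 0.1), and 0.14 to 0.25 with a library left out; the cause was not tested.

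Of 462 values of members and Setd2 under alternatives, 406 kept direction and side of the threshold, 6 lost a call (Abca1 in 4, Mvd in 2), 21 gained one, and 29 changed sign, all in genes not past the threshold in the main test. With relative log expression scaling the log2 fold changes of Cyp51, Mylip and Npc1 were 0.000646, 0.00125 and 0.00525, and with DESeq2 0.000652, 0.00123 and 0.00521. That of Npc1 was 0.000159 with no filter and 0.000156 with a mean of 1 CPM or more. Those of Ebp and Dhcr7 were -0.0139 and -0.0189 with library totals, -0.0161 and -0.0177 with limma on log2(FPKM + 1), and -0.0175 and -0.0208 on log2(FPKM + 0.1). With a library left out the range was -0.022 to 0.10 for Dhcr7, -0.79 to 0.33 for Nr1h3, -0.27 to 0.23 for Mylip, -0.16 to 0.15 for Npc1, -0.11 to 0.099 for Cyp51, -0.11 to 0.42 for Msmo1, -0.15 to 0.29 for Srebf2, -0.0071 to 0.30 for Stard4, -0.043 to 0.13 for Ebp and -0.041 to 0.23 for Insig2. No paired analysis was possible because the groups share no replicate number. Depth limited Nr1h3, at 11 to 25 counts a library.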
